A study of Cucumis x hytivus and Cucumis hystrix and Cucumis sativus with 8 samples.

Results

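The less studied and lineage-restricted miRNA families of Cucumis leaves are described here: microRNA (miRNA) families other than the widely conserved ones, many of them named after a single plant group. They were taken from a deposited table of small RNA sequences as the entries whose name holds miR and a number, after setting aside the widely conserved families and a few families known as rRNA or tRNA fragments. The rule used names only, not read counts. It found 172 of the 733 sequences listed and 98 of the 128 numbered families; 274 sequences were in the 30 families set aside and 287 carried no family number. Each sequence was counted once, although the 172 members filled 206 lines of the table.

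The study sequenced small RNA from leaves of the synthetic allotetraploid Cucumis ×hytivus, which combines the genomes of C. hystrix and C. sativus (cucumber), and of both diploid parents. The 4 groups held 2 libraries each: young leaves of the allotetraploid (the leaf nearest the top), mature leaves of the allotetraploid (the youngest leaf that had fully developed), mature leaves of C. hystrix Chakr. and mature leaves of C. sativus 'BeijingJietou'. The allotetraploid plants had been selfed to generation 10, and all plants grew in the same climate chamber settings without further treatment. The series' stated interest is how joining 2 genomes alters miRNA levels. Nothing in the labels says that the 2 libraries of a group came from separate plants, and p-values therefore reflect only how far these libraries spread, which may be technical. In whole leaves, fewer cells of a type and less of an RNA per cell cannot be told apart.

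A plant miRNA is cut by a Dicer-like enzyme from a hairpin precursor and guides an Argonaute protein to mRNAs with matching sequence. Canonical plant miRNAs are mostly of intermediate length within the small RNA range and often start with U, which AGO1 prefers. Families that are old are shared by most land plants, while younger families are confined to a lineage, tend to be expressed weakly, and are often supported by little evidence; several entries named this way in other plants have since been found to match tRNA or rRNA. Among the better understood families, miR858 targets MYB transcription factors of phenylpropanoid and flavonoid synthesis, miR394 targets the F-box gene LCR and acts in the shoot apex of Arabidopsis, miR530 has been tied to panicle and grain traits in rice, and miR482, miR2118 and their relatives target NBS-LRR disease resistance genes.

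The sequences below were chosen because the results turn on them. The first set shows 11 members that hold none of the tRNA letters searched for; capitals mark the seed, bases 2 to 8, and bases are given 5′ to 3′ with T for U. Coordinates are those the table lists for the precursor interval; no source used here names its genome build, and no gene annotation was used.
miR858 (22 nt, chr5:12374203-12374365, minus strand): tCTCGTTGtctgttcgaccttg
miR858b (21 nt, chr5:12374318-12374500, minus strand): tTCGTTGTctgttcgaccttg
miR394a (20 nt, chr2:15605322-15605532, plus strand): tTGGCATTctgtccacctcc
miR530b (21 nt, chr6:10267322-10267418, plus strand): tGCATTTGcacctacaccttc
miR477b (23 nt, chr5:27357280-27357384, plus strand): tTCTCTCCctcaaaggcttctgg
miR7129 (22 nt, chr5:11931502-11931563, plus strand): cAAATCTAaacgatcgtgtacc
miR2950-5p (21 nt, chr2:13796345-13796457, minus strand): tTCCATCTcttgcacactgga
miR2592bj-p3 (18 nt, chr4:10166270-10166450, minus strand): aTTCCCACtgtccctgtc
miR5083 (20 nt, chr7:15117336-15117501, minus strand): aGACTACAattatctgatca
miR3630-3p (21 nt, chr6:21653143-21653398, plus strand): aTGGGAATctctctgatgcac
miR3630-3p (19 nt, chr1:1507291-1507441, plus strand): gGGAATCTctctgatgcac
The miR858 and miR858b intervals overlap on the same strand of chromosome 5. Both entries hold the same bases from TCGTTGT to the 3′ end, so their seeds differ only by a shift along that shared run and the bases before it. The shorter miR3630-3p entry is the longer one without its first bases, although each was listed at its own position.

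The second set shows members that share letters with tRNAs. Here capitals mark the letters searched for. GCTCTGATA stands near the 3′ end of plant initiator methionine tRNA, CCCCGGCAACGG near the 3′ end of aspartate tRNA, TTGTAGTATAGTGG near the 5′ end of aspartate tRNA and CTTAGCTCAGTTGG near the 5′ end of tyrosine tRNA; CCA is added to the 3′ end of every mature tRNA. Entries with no position are given without one.
miR8155 (18 nt, chr3:18879306-18879338, plus strand): aacctgGCTCTGATAcca
miR8155 (19 nt, chr2:6747849-6747917, minus strand): aaacctgGCTCTGATAcca
miR5139 (20 nt, chr1:4295024-4295054, plus strand): cgaaacctgGCTCTGATAcc
miR5139 (21 nt, no position listed): cgaaacctgGCTCTGATAcca
miR8175 (21 nt, A variant, chr7:5203720-5203795, minus strand): cgatCCCCGGCAACGGcgcca
miR8175 (21 nt, T variant, no position listed): cgttCCCCGGCAACGGcgcca
miR8175 (18 nt, chr6:14161592-14161612, minus strand): tCCCCGGCAACGGcgcca
miR6300 (24 nt, chr3:27854447-27854494, plus strand): gtcgTTGTAGTATAGTGGtaagta
miR6300 (20 nt, chr1:9972537-9972742, plus strand): gtcgTTGTAGTATAGTGGta
miR6478 (23 nt, chr2:8085424-8085551, plus strand): ccgacCTTAGCTCAGTTGGtaga
The A and T variants of miR8175 differ by A3T, with positions counted from 1 at the 5′ end and the A variant given first. The 18-nt and 19-nt miR8155 entries and the 21-nt miR5139 entry end on the same base, so entries of different family names were lengths of 1 sequence: the 19-nt entry covered bases 3 to 21 of the 21-nt entry, and the 18-nt entry bases 4 to 21.

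On both strands, GCTCTGATA occurred in 20 members of 6 families (miR1511, miR1873, miR5139, miR7782, miR8155 and miR845), in 19 of them on the strand listed. It was found in 21 of all sequences listed (2.86%). CCCCGGCAACGG was held by 10 members, all named miR8175 (1.36% of all sequences listed), TTGTAGTATAGTGG by 14 members, all named miR6300 (1.91%), and CTTAGCTCAGTTGG by 7 members, all named miR6478 (0.955%). The letters searched for were read off listed entries of miR8155, miR8175, miR6300 and miR6478. Matches within those names were therefore largely fixed in advance and are no finding. No set-aside or unnumbered sequence held any of the last 3 motifs. No entry held more than 1 of the 4 motifs, so 51 members held tRNA letters and 121 did not. Of the reads of the initiator methionine group, 98.4% belonged to entries ending in CCA, and of the aspartate 3′ group 99.3%. Neither 5′ group had such an entry. A match describes letters only; where the reads came from was not tested.

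The 172 members ranged from 18 to 25 nt, and 89 of them (51.7%) were 18 or 19 nt long, against 16.1% of the set-aside families. Sequences of 20 to 22 nt, where canonical plant miRNAs lie, made up 40.7% of the members and 76.6% of the set-aside sequences. A first base of T, which is U in the RNA, was found in 37.2% of the members, 50.7% of the set-aside sequences and 29.97% of those with no number. Within the members, T came first in 46.3% of those without tRNA letters and in 15.7% of those with them. The table listed a genome position for 106 members, and for 22 of these (20.8%) the interval was shorter than 60 bases, down to 21 bases; among set-aside sequences with a position the share was 7.69%. By the authors' own marks, 14 members had the sequence of a miRBase entry, 109 differed from the entry they were named after and 49 were new. These shares are descriptions of the list, with no test.

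Most members had few reads. The median member had 9 reads over the 8 libraries, against 41.5 for a set-aside sequence, and 88 of the 172 had under 10. In all 8 libraries, 36 members (20.9%) were read, against 41.6% of set-aside sequences, while 56 (32.6%) were read in a single library, against 10.2%. Of the values listed, 80.5% were whole numbers (within 1e-06) and the rest were fractions, and 10 members carried the same values as another listed sequence. A pair of 23-nt miR6300 entries with identical values is counted as 2 below, although their reads cannot be told apart.

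Listed reads per library ran from 99196 in C. sativus library 2 to 464306 in young library 1. The members took 1.03% and 1.19% of them in the young libraries. Their share was 2.05% and 0.775% in the mature allotetraploid libraries, 0.899% and 1.03% in those of C. hystrix, and 3.15% and 2.16% in those of C. sativus. Their Wilson 95% intervals, which cover counting error only, were narrow (0.999% to 1.06% in young library 1, 2.07% to 2.25% in C. sativus library 2), whereas the 2 mature allotetraploid libraries lay far apart. Both C. sativus libraries were above all others by this share, although the interval of C. sativus library 2 overlapped that of mature allotetraploid library 1 (1.99% to 2.12%), and the mature allotetraploid libraries overlapped with C. hystrix and with the young leaves. Members with tRNA letters made up most of these reads in each library, from 59.6% in young library 1 to 89.5% in C. sativus library 1. The 121 members without those letters took 0.415% and 0.475% in the young libraries, 0.345% and 0.244% in mature allotetraploid libraries, 0.237% and 0.281% in those of C. hystrix, and 0.331% and 0.804% in those of C. sativus.

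**Figure D1:**
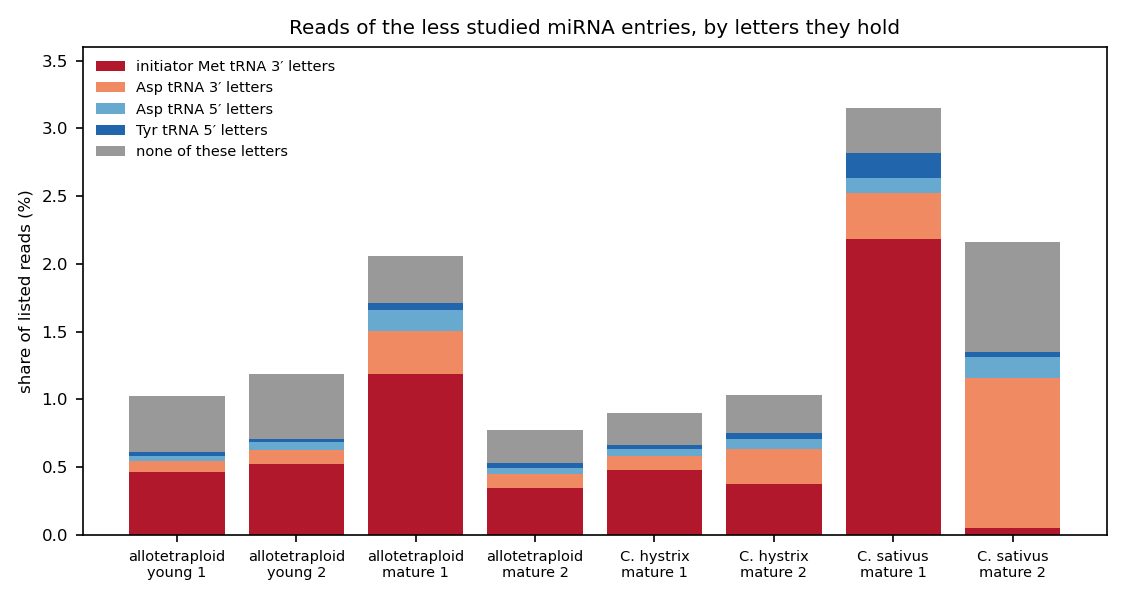
Stacked bars give the share of listed reads (%) taken by the 172 members in each of the 8 libraries, split by the tRNA letters they hold; grey is the 121 members with none of them. C. sativus library 1 reached 3.15%, most of it initiator methionine letters, and C. sativus library 2 had 2.16% with very little of that group.

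C. sativus library 2 stood apart from the others. The set-aside fragment families (miR894, miR2916, miR4995, miR5072, miR5368 and miR6173) took 56.6% of its listed reads and 5.57% to 15.6% in the other 7 libraries. Over the 208 entries tested, its Spearman correlation with the other C. sativus library was 0.572, whereas the pairs of the other groups reached 0.823 to 0.952. Results that involve C. sativus are therefore given with and without this library. Levels are in CPM, counts brought to a common depth (library totals were scaled by the trimmed mean of M-values, TMM).

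Of the 172 members, 40 passed the filter on low counts and were tested: 23 with tRNA letters and 17 without. The other 132 had between 0.5 and 180 reads in all. None of the 40 passed edgeR's quasi-likelihood test at a Benjamini-Hochberg adjusted p under 0.05 in any of 5 comparisons, adjusted over all 208 tested sequences. In the same comparisons it called 1.92% of all tested sequences between young and mature allotetraploid leaves, 0% between the mature allotetraploid and C. hystrix, 0.481% between the mature allotetraploid and C. sativus, 0.962% between the parents and 0% against the mid-parent. The members' count of 0 therefore stood against a background of few calls. At an unadjusted p under 0.05, edgeR found 1 member between young and mature leaves and 0 in each other comparison; DESeq2 called 0 and had 2, 0, 3, 2 and 0 at that level, and limma called 0 and had 1, 0, 0, 1 and 0. The median standard error of a member's log2 fold change was 1.29 between young and mature leaves, so differences smaller than several-fold could not be resolved with 2 libraries a group.

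**Figure D2:**
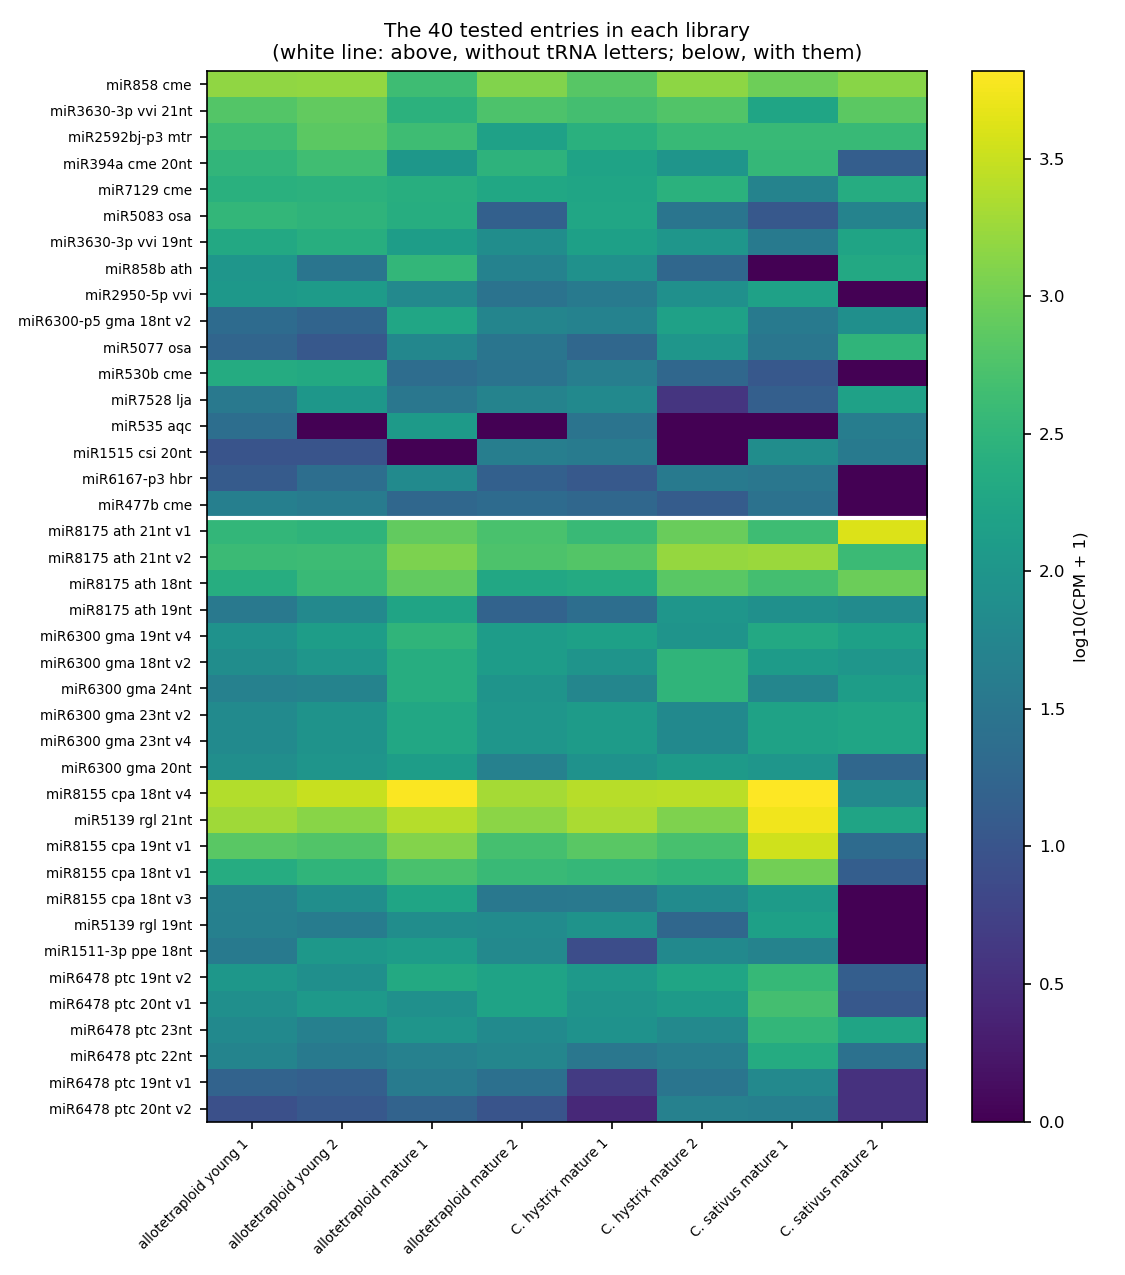
Colour gives log10(CPM + 1) for the 40 tested members (rows) in each library (columns); names give the family, the code of the species it was named after and, where needed, length and variant. In C. sativus library 2 the miR8155 and miR5139 rows are dark, down to 0 CPM, while the 21-nt A variant of miR8175 (v1) is at its brightest.

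Young and mature allotetraploid leaves were compared to see how the members differ with leaf age. Of the 17 tested members without tRNA letters, 10 were higher in both young libraries than in both mature ones and 2 were lower in both. All 10 members that were separated upward came from this group. The filter asks for a minimum level in at least 2 libraries, so a member could pass by its young libraries alone. With only the groups compared in the fit, 8 of these 10 were tested in each comparison without young leaves. The filter can thus favour members that are high in young leaves, and the count of 10 is a description only. Counted over all 40 members, 25.0% were separated upward and 32.5% downward, against 34.1% and 29.8% of all tested sequences, so separation as such was no more frequent among the members. None of these differences passed the test.

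miR530b was the member with the largest upward difference. Its level was 220 and 204 CPM in the young libraries, 22.4 and 27.8 in those of mature allotetraploid leaves, 42.5 and 17.7 in those of C. hystrix, and 10.1 and 0 in those of C. sativus. Both young libraries were above each of the 6 mature ones by a factor of several. In edgeR's quasi-likelihood test, the log2 fold change of young over mature was 3.05 ± 1.36 (SE), with an unadjusted p of 0.038 and a Benjamini-Hochberg adjusted p of 0.318. The mean was 212 ± 11.6 CPM in young leaves and 25.1 ± 3.84 in mature leaves (SD, n = 2). It rested on 87 and 70 reads against 5 and 8, with 12 and 3 in C. hystrix leaves and 3 and 0 in those of C. sativus. By these reads miR530b could pass the filter on low counts through its young libraries alone. Its p-values are therefore descriptions only. The call depended on the fit: with the 4 libraries of the comparison alone, miR530b passed (adjusted p = 0.0052) with 21.4% of all sequences tested there, as it did when C. sativus library 1 was left out (adjusted p = 0.048), with 10.7%. Its family sum, with a second entry named after flax, gave 3.15 ± 1.71 and did not pass (adjusted p = 0.672).

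miR858, the most abundant member without tRNA letters, was listed at 1513 and 1600 CPM in young leaves and 430 and 1231 in mature allotetraploid leaves. In the parents it was at 670 and 1491 CPM in C. hystrix leaves and 936 and 1366 in those of C. sativus. The young libraries were the highest of all 8, yet the mature libraries differed from each other by more than the higher of them differed from the young ones. The log2 fold change of young over mature was 0.90 ± 1.03 (SE; edgeR quasi-likelihood, adjusted p = 0.798).

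miR858b, from the overlapping interval, had another pattern. It was at 98.8 and 29.1 CPM in young leaves, 340 and 48.7 in mature allotetraploid leaves, 85.0 and 17.7 in C. hystrix leaves, and 0 and 202 in those of C. sativus. The groups overlapped throughout, with a log2 fold change of young over mature of -1.59 ± 1.55. The ratio of miR858 to miR858b reads was 15.3 and 54.9 in young leaves, 1.26 and 25.3 in mature allotetraploid leaves and 7.88 and 84.3 in C. hystrix. In C. sativus it was 278 reads against 0 in library 1 and a ratio of 6.75 in library 2. The ratio varied several-fold within every group.

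miR394a was at 321 and 439 CPM in young leaves, 105 and 290 in mature allotetraploid leaves, 164.7 and 97.3 in C. hystrix leaves, and 345 and 12.7 in those of C. sativus. Young leaves were above the other allotetraploid leaves and C. hystrix, but C. sativus library 1 reached the young range and library 2 was far below every other. The log2 fold change of young over mature was 0.92 ± 1.22. The 21-nt miR394a entry, which shares the 20-nt entry's seed, had 8.5 reads in all and was not tested.

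The other 7 members that were higher in both young libraries had log2 fold changes between 0.34 and 1.35, each close to or below its standard error (0.99 to 1.64). The 21-nt miR3630-3p, named after grapevine, stood at 616 and 790 CPM in young leaves and 282 and 557 in mature allotetraploid leaves. Its 19-nt form stood at 198 and 248 against 134 and 73.0 CPM, and the 21-nt form exceeded it by 2.10 to 7.62 times in all 8 libraries. miR2592bj-p3, named after Medicago truncatula, stood at 428 and 708 CPM against 421 and 153, so that its groups were barely apart. No role is given here for these 3 entries.

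miR7129 was the flattest of the 10, at 266 and 280 CPM in young leaves and 246 and 184 in mature allotetraploid leaves (log2 fold change 0.34 ± 1.04). miR2950-5p stood at 109 and 122 CPM against 62.7 and 27.8, and miR477b at 43.1 and 37.9 against 17.9 and 20.9. In C. sativus library 1 miR2950-5p stood at 151 CPM (45 reads), above both young libraries. In C. sativus library 2 miR2950-5p, miR477b and miR530b were all at 0 reads. A count of 0 there allows up to 3 reads by counting error, and both miR477b and miR530b had few reads elsewhere in mature leaves.

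miR5083, named after rice, differed mainly between libraries. It was at 332 and 306 CPM in young leaves, 237 and 13.9 in mature allotetraploid leaves, 181 and 29.5 in C. hystrix leaves, and 10.1 and 50.6 in those of C. sativus. In raw reads it had 53 against 4 in the 2 mature allotetraploid libraries and 51 against 5 in the 2 C. hystrix libraries. Its log2 fold change of young over mature was 1.35 ± 1.30. miR5083 is in a list of families whose listed sequences are possible rRNA or tRNA fragments; that list as a whole, within the members, took 0.212% to 0.534% of allotetraploid reads.

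**Figure D3:**
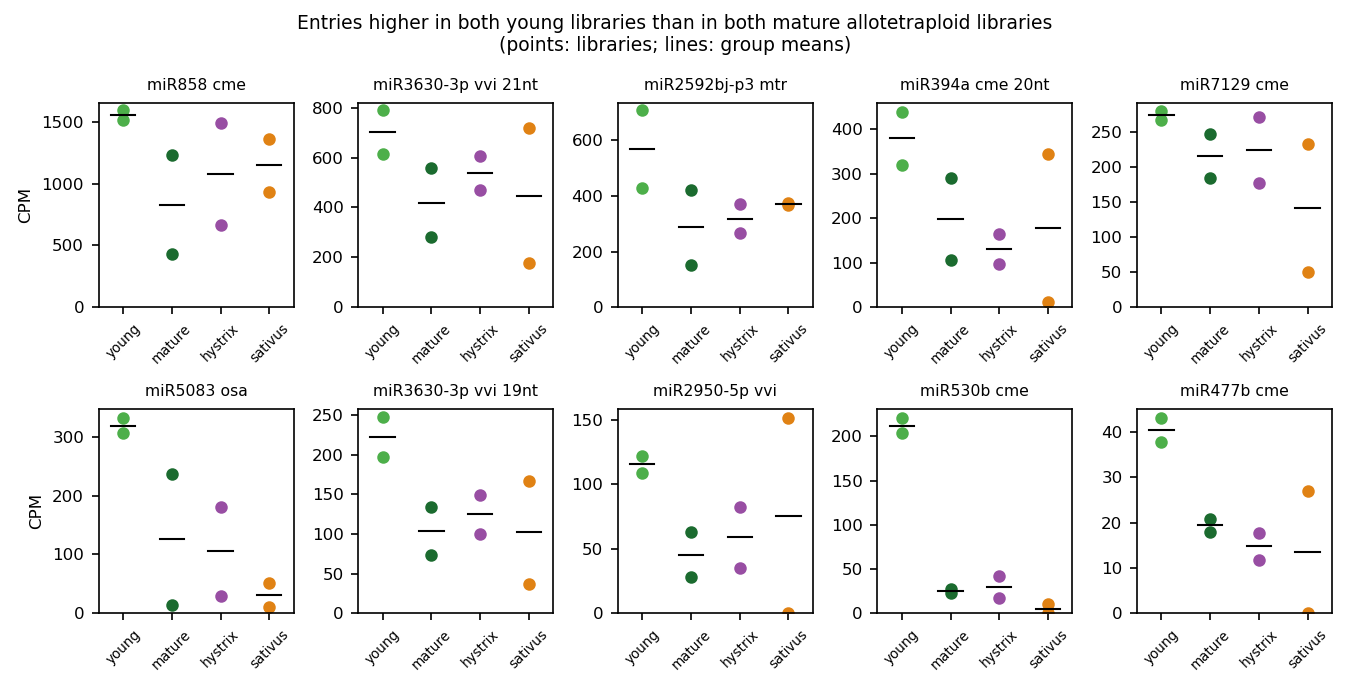
Points give the CPM of each library and lines the group mean (n = 2) for the 10 members higher in both young than in both mature allotetraploid libraries; each panel has its own axis from 0. miR530b is separated from all 6 mature libraries, whereas miR7129 and miR2592bj-p3 are close to them.

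The 2 members without the tRNA letters searched for that were lower in both young libraries were miR6300-p5 and miR5077. The seed of miR6300-p5, TGGTAAG, also occurs in the 24-nt miR6300 shown above, which holds aspartate tRNA letters. miR6300-p5 was placed with the members without tRNA letters only because it lacks the motif searched for. Whether its reads came from a tRNA was not tested. miR6300-p5 (18 nt) was at 20.3 and 16.03 CPM in young leaves, 179 and 53.9 in mature allotetraploid, 47.8 and 150 in C. hystrix leaves, and 37.0 and 78.4 in those of C. sativus. Its log2 fold change of young over mature, -2.60 ± 1.32, was the largest downward difference of the 40 members (edgeR quasi-likelihood, adjusted p = 0.409). With the 4 libraries of the comparison alone, miR6300-p5 passed edgeR's quasi-likelihood test (adjusted p = 0.046), in a fit that called 21.4% of all sequences tested. miR5077, named after rice and sharing 14 bases with a set-aside miR894 entry, was at 16.5 and 10.2 CPM in young leaves and 58.2 and 29.6 in mature allotetraploid leaves. In C. sativus it was at 30.3 and 311 CPM, with the high value in the library rich in the miR894 group of fragments.

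All 23 tested members with tRNA letters had a log2 fold change of young over mature below 0, though the 20-nt miR6300, at -0.06, was above 0 with RLE scaling (0.06), DESeq2 (0.06), limma (0.10) and the deposited scaling (0.14). Their median was -0.73, and 11 of them were lower in both young libraries, as were 29.8% of all tested sequences. The 17 others had a median of 0.80, with 11 above 0. They included miR6300-p5, whose seed also occurs in the 24-nt miR6300. The median over all 208 tested sequences was -0.03. The largest difference among the 23 was that of the 24-nt miR6300, at 46.9 and 49.6 CPM in young leaves against 235 and 93.9 in mature leaves (-1.77 ± 1.17). The T variant of miR8175, the more abundant of its 2 variants in 7 libraries, was at 392.8 and 413.9 against 1169 and 557 CPM (-1.10 ± 1.06). Without mature library 1, 7 of the 23 were above 0, miR8155 and miR8175 entries among them. Many of the 23 are lengths of the same sequences read in the same 4 libraries, so they are not separate observations.

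Scaling moved these values together. The median over all tested sequences was 0.15 with the deposited scaling and -0.42 when TMM was computed without fragment families and the tRNA-letter members, a setting chosen after seeing the data. In the latter, miR7129 changed sign to -0.05 while the other 9 upward members stayed above 0. The members with tRNA letters had a median of -0.54 with the deposited scaling and -1.12 in the latter setting, and those without had 0.93 and 0.46. Under other filters the members without tRNA letters did not stand above all sequences: their median was 0 against 0.54 with no filter on low counts and 0.36 against 0.40 with a minimum of 10 CPM. Without young library 1 their median was 0 against -0.13, and without mature library 1 it was 0.12 against 0.13. The share of set-aside fragment families was 5.57% and 6.09% in young against 15.6% and 11.1% in mature allotetraploid leaves. The summed share of miR164, miR165, miR166 and miR394, which are known from the shoot apex and primordia, was 60.8% and 50.5% against 44.9% and 44.2%, and that of miR395, miR398, miR399 and miR2111, found in phloem sap, 0.159% and 0.119% against 3.68% and 0.376%. The part of any of these in the members' differences was not tested.

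The groups with tRNA letters were followed by their summed reads. The initiator methionine group had 2143 and 1971 reads in young, 2463 and 1313 in mature allotetraploid, 1670 and 833 in C. hystrix leaves, and 5229 and 53 in those of C. sativus. It took 69.2% of member reads in C. sativus library 1 and 2.48% in library 2. The aspartate 3′ group had 399.5 and 408.5 reads in young, 657.5 and 376 in mature allotetraploid, 352 and 560.5 in C. hystrix leaves, and 827.5 and 1093.5 in those of C. sativus. The initiator group was thus lowest in the library where the aspartate group was highest.

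As a ratio, initiator methionine reads to aspartate 3′ reads came to 5.37 and 4.82 in young, 3.75 and 3.49 in mature allotetraploid, 4.75 and 1.49 in C. hystrix leaves, and 6.32 and 0.0485 in those of C. sativus. Library 2 of C. sativus was lower than each other library by more than an order of magnitude. Ratios between 2 entries of 1 library do not depend on depth or scaling. The aspartate 5′ group (miR6300) over the aspartate 3′ group (miR8175) ran from 0.302 to 0.531 in 7 libraries and was 0.139 in C. sativus library 2, so letters of the 2 ends of aspartate tRNA were listed in other proportions there.

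The 2 variants of miR8175 also changed places. The A variant over the T variant, which differ by A3T, ran from 0.240 to 0.953 in 7 libraries and reached 10.6 in C. sativus library 2. In reads, the A variant had 824.5 against 78 for the T variant in that library. In CPM the A variant stood at 338 and 300 in young, 795 and 530 in mature allotetraploid, 381 and 875 in C. hystrix leaves and 427 and 4173 in those of C. sativus. The 21-nt miR5139 over the 18-nt miR8155, which are lengths of 1 sequence, ran from 0.392 to 0.857 in 7 libraries and was 2.75 in C. sativus library 2, where it rested on 33 and 12 reads. The 19-nt over the 18-nt miR8155 of the same sequence was 0.33, inside the 0.189 to 0.528 of the other 7 libraries.

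**Figure D4:**
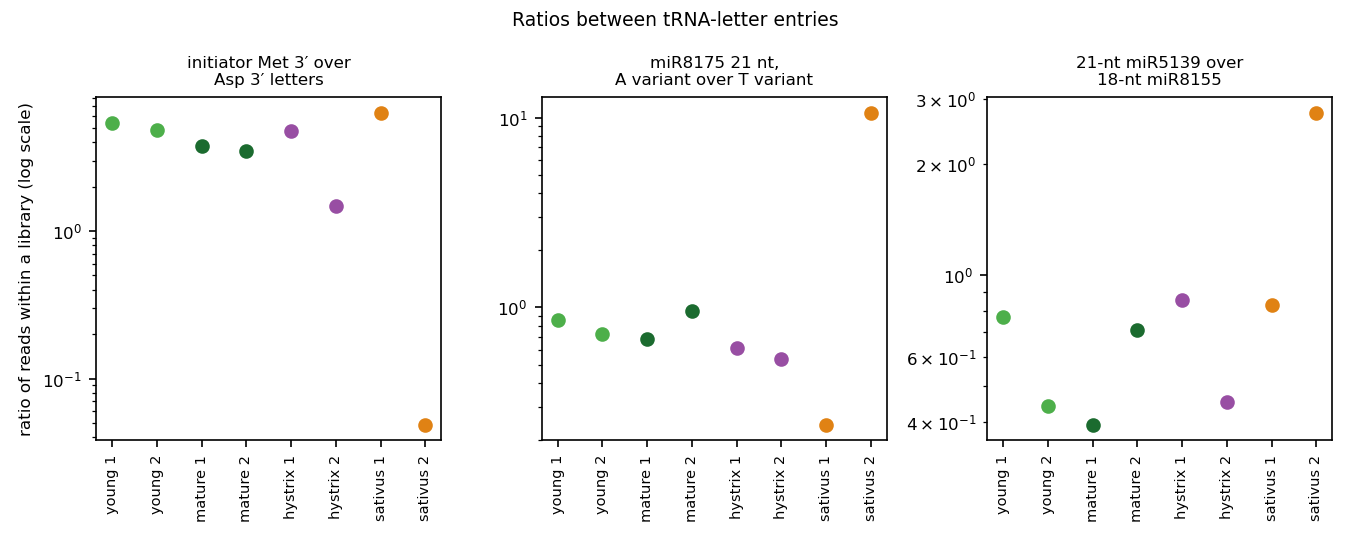
Points give ratios of reads in each library on log axes: initiator methionine over aspartate 3′ letters, the A over the T variant of 21-nt miR8175, and 21-nt miR5139 over 18-nt miR8155. In all 3 panels C. sativus library 2 lies outside the range of the other 7 libraries (0.0485, 10.6 and 2.75).

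The mature allotetraploid was compared with each parent to see whether its levels follow 1 of them. Against C. hystrix, the smallest adjusted p among the 40 members was 0.979, and 3 members (7.5%) did not overlap between groups, against 18.8% of all tested sequences. The members' median log2 fold change was 0.24, with 27 above 0, against a median of 0.17 over all. The largest differences were those of miR535, which is close in sequence to miR156 and targets SPL genes (1.95 ± 2.17), miR858b (1.88 ± 1.58) and the 18-nt miR1511-3p, which holds initiator methionine letters (1.45 ± 1.57). miR535 was read in only 1 library of every group, at 22.8 and 0, 121 and 0, 28.3 and 0, and 0 and 40.5 CPM, so no group difference can be read from it. The largest downward differences were those of a 20-nt miR6478 entry (-0.85 ± 2.00), miR5077 (-0.43 ± 1.39), the T variant of miR8175 (-0.38 ± 1.05) and miR858 (-0.38 ± 1.02).

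Against C. sativus, 4 members (10.0%) did not overlap, against 29.8% of all tested sequences, and the smallest adjusted p was 0.841. miR530b and miR5083 had the largest upward values, at 2.09 ± 1.49 and 2.06 ± 1.39 (log2, mature allotetraploid over C. sativus). miR5077 and the A variant of miR8175 had the largest downward ones, at -1.99 ± 1.40 and -1.79 ± 1.14. The downward values rested on C. sativus library 2. Without it, miR5077 was at 0.72 and the A variant at 0.88, while miR530b was at 1.57 and miR5083 at 3.70, and no member passed (smallest adjusted p = 0.0519 by edgeR's quasi-likelihood test).

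With C. sativus library 2 as the only library of its group, after library 1 was left out, 9 of 55 members tested passed edgeR's test at an adjusted p under 0.05, in a fit that called 18.3% of all 300 sequences it tested. Here 7 were higher in the mature allotetraploid: miR394a (4.19), 3 miR8155 entries (5.22 to 5.87), a 19-nt miR6478 entry (3.97), a further miR8155 entry with 0 reads in that library, for which no fold is given, and the 21-nt miR5139 (3.37). The A variant of miR8175 (-2.81) and miR5077 (-3.04) were lower. In that library the miR394a and 19-nt miR6478 values rested on 2.5 reads each, and those of the 3 miR8155 entries on 2.5 to 12 reads. The same reads stand behind the values given below without C. sativus library 1. The lone library was there assumed to vary like the others.

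Between the parents, 4 members (10.0%) did not overlap, against 31.2% of all tested sequences, and none passed (smallest adjusted p = 0.952). miR530b, at 42.5 and 17.7 CPM in C. hystrix leaves and 10.1 and 0 in those of C. sativus, had the largest upward value (2.37 ± 1.49, log2 of C. hystrix over C. sativus), followed by miR5083 (1.83 ± 1.38) and the 24-nt miR6300 (1.01 ± 1.15). The largest downward values were the A variant of miR8175 (-1.87 ± 1.14) and the 23-nt miR6478, at 86.8 and 61.9 CPM in C. hystrix leaves and 340 and 167 in those of C. sativus (-1.81 ± 1.08). The 23-nt miR6478 was above its C. hystrix range in both C. sativus libraries, and above all allotetraploid libraries (45.2 to 98.5 CPM). Without C. sativus library 2, it was at -1.96, the A variant of miR8175 turned to 0.83, miR530b was at 1.82, miR5083 at 3.59 and the 24-nt miR6300 at 2.07, and no member passed. Without C. sativus library 1, which raised the calls to 15% of all sequences tested, 7 of 55 members tested passed: miR394a, the 21-nt miR5139, a 19-nt miR6478 and 3 miR8155 entries were higher in C. hystrix (3.18 to 5.28), and the A variant of miR8175 was lower (-2.85).

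The mid-parent, the mean of the 2 parents' log2 levels, was set against the mature allotetraploid. Where the parents differ, this mean lies below the log2 of their mean level. A value above 0 is therefore not by itself a departure from additive levels. None of the 40 members passed (smallest adjusted p = 0.993), with 23 above 0 and 17 below, a median of 0.18 against 0.14 over all, and values from -1.21 ± 1.25 (miR5077) to 1.78 ± 1.76 (miR535). miR858b was at 1.42 ± 1.28. Without C. sativus library 2, miR858b passed at a fitted 5.27, with 0.66% of all sequences tested. That value is no bound, because the remaining C. sativus library had 0 reads, and this lone library was assumed to vary like the others. Without C. sativus library 1, miR394a (2.45) and 3 miR8155 entries (2.87 to 3.23) passed, with 7.33% of all sequences tested. The 4 comparisons among mature leaves share libraries, so their values are not independent.

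Summed by family, 22 of the 98 families were tested, and edgeR called none in the 5 comparisons. The background of called families was 3.49% between young and mature leaves, 0% between the mature allotetraploid and C. hystrix, 1.16% with C. sativus, 1.16% between the parents and 0% against the mid-parent. At an unadjusted p under 0.05, edgeR had 0 families in all 5, DESeq2 had 1, 0, 1, 0 and 0, and limma had 1, 0, 0, 0 and 0. Of the 22 families, 12 were above 0 for young over mature, with miR530 highest at 3.15 ± 1.71. miR8757, for which no fold is given, had no reads in either young library and reads in 1 library of each mature group, 31.3, 6.63 and 47.5 CPM. The families with most reads were miR8155 (10528 in all), miR5139 (4973), miR8175 (4686), miR858 (2797), miR6300 (1770), miR3630 (1487) and miR6478 (1194), of which only miR858 and miR3630 lack the tRNA letters.

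By known roles, few members were measurable. The NBS-LRR group, whose miRNAs trigger phased small RNAs from resistance genes, held 11 entries from 8 of 11 listed families. None of the 11 entries was tested, 10 had no position and 7 were read in 1 library. Its summed reads were 51 and 0 in young, 11 and 12.5 in mature allotetraploid, 9 and 3 in C. hystrix leaves, and 0 and 6 in those of C. sativus. The largest was miR1507a, with 19 reads in young library 1 and 0 elsewhere. miR6027-3p had 10 reads in mature allotetraploid library 2 and 0 elsewhere, and miR482c had 6 in mature library 1, 2 in C. hystrix library 1 and 5 in C. sativus library 2.

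miR529-p5, of the second SPL-targeting family, had 2 and 10 reads in young leaves, 0 and 5 in C. hystrix, and 0 in the mature allotetraploid and C. sativus leaves. miR528-5p, which in monocots targets copper proteins, had 6 reads in C. hystrix library 1. miR845, which in Arabidopsis pollen matches the primer binding site of retrotransposons, where initiator methionine tRNA binds, had 4 reads in mature allotetraploid library 1 and 1 in C. sativus library 1. No member belonged to the listed auxin families or to the families that trigger TAS or PPR small RNAs. miR1448 had 6 and 0, 0 and 6, 7 and 0, and 0 and 8 reads, so it, like miR535, was read in a single library of every group.

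The 56 members read in 1 library were spread unevenly. Young library 1 held 16 of them, young library 2 held 7, the mature allotetraploid libraries 3 each, C. hystrix 9 and 5, and C. sativus 11 and 2. In young library 1, 13 of the 16 were named after soybean (code gma). In the other 7 libraries, 3 of 40 were.

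Members named after soybean for which the table listed no position numbered 16. Of these, 15 were read in young library 1 and 12 nowhere else. Their summed reads were 96.3 in young library 1, 0 in young library 2, 8.67 and 0.33 in the mature allotetraploid libraries, 2 and 0.33 in those of C. hystrix, and 1.67 and 0 in those of C. sativus. They include miR1507a, both miR1510b arms, miR2118a-3p and miR2109-5p, thus most of the NBS-LRR reads of young leaves. The 50 other members without a position gave no such pattern: 1 was read only in young library 1, and each library held 9 to 18 of them. Among set-aside families, 5 soybean-named entries had no position, and 1 of these was read only in young library 1. None of the 16 was tested, 13 were 21 or 22 nt long and the authors marked 5 as present in miRBase. Whether these reads came from the leaves was not tested, and they bear on young library 1 only.

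**Figure D5:**
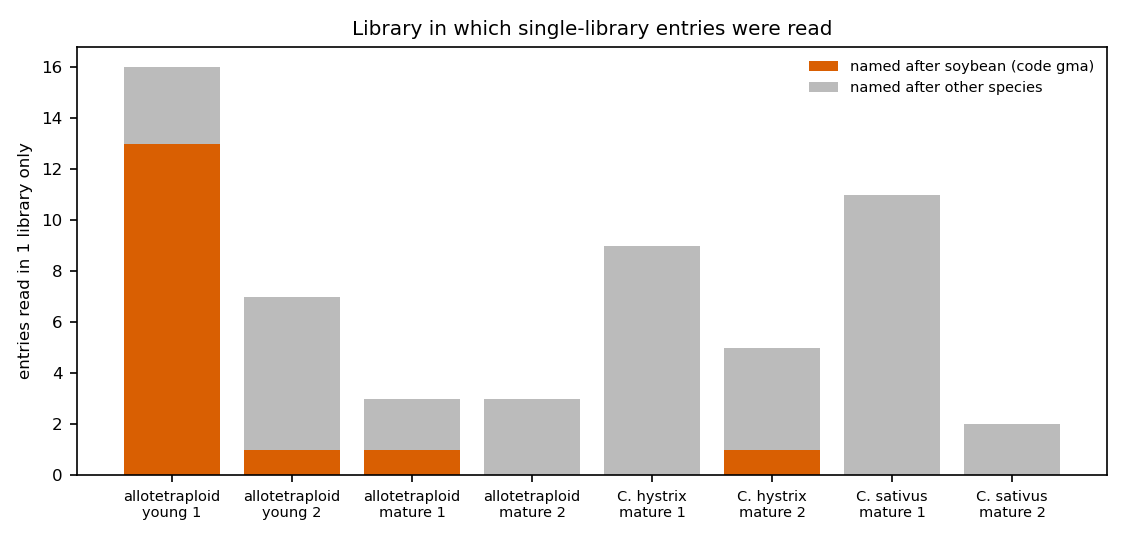
Bars count the members that were read in 1 library only, placed at that library; orange marks those named after soybean and grey those named after other species. Young library 1 has 16, of which 13 are soybean-named, while the other libraries hold 2 to 11.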

How the data were processed

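Small RNA was measured in 8 libraries of 4 groups of 2, grouped by their titles. The table is the authors' deposited list of miRNA sequences with estimated counts (raw reads with fractions) per library. A second set of columns, deposited as normalized reads and treated as signal values, held the estimated counts times 1 constant per library (0.676 to 1.74), as checked on the file; they served only for the deposited-scaling alternative. Per the submitters' processing notes, Bowtie 0.12.8 was among the tools; mapping rules and genome build are stated in no source used here. The labels' protocols describe TRIzol extraction, oligo(dT) beads and an Illumina HiSeq instrument.

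Each sequence was used once. Counts were rounded and fitted across the whole table with edgeR 4.0.16 (R 4.3.3; TMM, filterByExpr, robust quasi-likelihood, all 4 groups in 1 fit). This kept 208 of 733 sequences and 86 family rows. p-values were adjusted by Benjamini-Hochberg over all rows tested in a comparison, with a threshold of 0.05. Standard errors are the absolute log2 fold change divided by the square root of F. Alternatives used limma 3.58.1, on log2(CPM + 1), and DESeq2 1.42.0. With 2 against 2, an exact permutation test cannot go below p = 0.33, so none is given. The fitting was also run on simulated data with planted changes. Its outcome is not given here and bears on none of the results. Listed reads, from 99196 to 464306 a library, set the depth; intervals are Wilson 95%.

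Named members were those with an adjusted p under 0.05, the 4 largest changes in each direction of a comparison, the 15 most abundant and the role lists. The members, motifs and lists were chosen with earlier results of these data known. The library ratios, separated members and soybean-named entries were singled out after their values were seen. Replicate numbers did not pair libraries: same-numbered deviations correlated at -0.124 to 0.269. No dose, gene annotation or genome was used.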

Additional observations from a re-analysis of the deposited data

How the results depend on the processing

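The member calls stayed at 0 in all 5 comparisons under RLE scaling, TMM without fragment families, both other filters on low counts, DESeq2, limma, unrounded reads, every listed line of a sequence and the scalings added after seeing the data. With only the groups compared in the fit, young against mature leaves gave 2 member calls (36 tested) and 1 family call (miR530, adjusted p = 0.0015), among 21.4% of all sequences and 10.5% of all families called. The replicate block gave 0 calls in every comparison, for members and for families, and moved miR5077 to 0.11 (mature allotetraploid over C. hystrix) and miR535 to -1.49 (mature allotetraploid over C. sativus); the numbers do not pair the libraries. limma put the 20-nt miR6478 entry at 0.82 against C. hystrix and 0.85 against the mid-parent. The group means of the member share of listed reads became 0.646% in young and 0.519% in C. hystrix leaves when every listed line was counted, and 1.09% in C. hystrix and 4.33% in C. sativus leaves as a share of reads outside the fragment families. The cause of these changes was not tested. Of 793 alternative values of 40 fold changes, 757 kept their direction and side of the threshold, 7 newly passed it and 29 changed sign.

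Leaving out 1 library at a time, the member calls ran from 0 to 1 (young against mature), 0 to 9 (mature allotetraploid against C. sativus), 0 to 7 (between the parents) and 0 to 4 (mid-parent), and the family calls from 0 to 6, 0 to 6 and 0 to 1 in the last 3. Without C. sativus library 1 the counts were the highest. That fit left 1 library in the C. sativus group. It also called a larger share of all families, members or not, than the fit of all 8 libraries in each of the last 3 comparisons. These shares were 13.6%, 14.3% and 4.76%, against 1.16%, 1.16% and 0%. The family counts therefore stood against a raised background, and whether member families exceeded it was not tested. Of the 40 fold changes followed, those of the 4 largest in each direction of a comparison, the following changed sign. For young over mature it was miR535, from -6.86 to 4.66; among the other tested members, miR858b and miR6167-p3 (0.12 and 0.03 without mature library 1), miR1515 (4.46 without mature library 2) and miR7528 (-0.32 without young library 2) also did, as did 7 members with tRNA letters without mature library 1, 2 without mature library 2 and 2 without young library 1. For mature allotetraploid over C. hystrix they were the 20-nt miR6478 from -2.01 to 4.90, miR5077 from -1.33 to 1.29, the T variant of miR8175 from -1.04 to 0.51, miR858 from -1.50 to 0.45, miR535 from -5.12 to 6.94 and an 18-nt miR8155 from -0.40 to 1.51. Over C. sativus they were miR5077 from -3.04 to 0.72, the A variant of miR8175 from -2.81 to 0.88, miR5083 from -1.04 to 3.70 and miR535 from -5.69 to 7.04. For C. hystrix over C. sativus they were the A variant from -2.85 to 0.83, the 22-nt miR6478 from -2.35 to 0.38, miR5077 from -3.45 to 1.22, miR5083 from -0.022 to 3.59, the 24-nt miR6300 from -0.84 to 2.07 and an 18-nt miR6300 from -0.34 to 1.59. Against the mid-parent they were miR5077 from -1.76 to 0.12, the 20-nt miR6478 from -1.42 to 2.07, the A variant from -1.39 to 0.47, miR535 from -5.40 to 4.44, miR858b from -0.49 to 5.27 and miR5083 from -1.87 to 1.91. In some of these fits the library left in a group had 0 reads after rounding. The largest values of miR535, miR1515, the 20-nt miR6478 and miR858b came from such fits, so their size is no bound. The filter, which asks for a minimum level in at least 2 libraries, left 132 of the 172 members untested; one of them, the 20-nt miR5139, had 180 reads, of which 140.5 were in C. sativus library 1.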
